A study of Mus musculus with 42 samples.

Results

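The pooled effect of TSG-6 was measured in cultured synovial fibroblasts, the connective tissue cells that line the joint, from wild-type mice. It sets the 4 arrays of cultures given TSG-6, with or without hyaluronan (HA), against the 7 arrays of cultures left without TSG-6, with HA as a covariate. These 11 arrays were chosen by their treatment labels out of the 42 arrays of the study, each array being 1 culture.

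The mice, all female BALB/c, had been immunised with 100 ug of cartilage proteoglycan and 2 mg of the adjuvant dimethyldioctadecyl-ammonium bromide and had become arthritic, so that every group, untreated cultures included, derives from inflamed joints. Cells were released by enzyme digestion, grown for up to 6 passages in medium with 10% fetal calf serum, kept overnight in 0.5% serum and then treated for 12 h. The TSG-6 cultures received 120 ug/ml of recombinant mouse TSG-6 (2 arrays), or that dose together with 24 ug/ml of HA (2 arrays). The cultures without TSG-6 received 24 ug/ml of HA (2 arrays) or nothing (5 arrays). Other wild-type cultures, used here for comparison, received 200 ng/ml of LPS or 5 ng/ml of TNFa (2 arrays each). Cultures labelled as TSG-6 knockout came from Tnfaip6-deficient BALB/c mice treated in the same way, with 3 arrays for TSG-6, 4 for TSG-6 with HA, 4 for HA and 8 untreated. The labels call the arrays biological replicates without saying that each culture came from a separate animal, so the p-values measure the spread between these cultures. They name no animal, passage number or source of the recombinant protein for a culture.

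TSG-6, the product of Tnfaip6, is a small secreted protein with a Link module that binds hyaluronan, the long sugar polymer of synovial fluid and pericellular matrix. It also transfers heavy chains from inter-alpha-inhibitor onto hyaluronan and is induced in joint cells by inflammatory cytokines such as TNF and interleukin 1. In arthritis models it is best known as a damping factor of neutrophil entry and of plasmin activity.

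Values are RMA expression values on the log2 scale, centred by the authors so that each probe set has a median of 0 over the 42 arrays. A negative value therefore means lower than in the middle array of the study, not that a gene was silent, and levels of different genes cannot be set against each other. A fold change is a difference of fitted means on the log2 scale, given ± SE. A gene was called when its limma p-value, adjusted by the Benjamini-Hochberg method over 18194 genes, was under 0.05. Each measurement is of RNA from a whole culture, so fewer cells of a type and less RNA per cell cannot be told apart.

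Before the results, 3 features of the arrays need stating. The 15 wild-type arrays fell into unlabelled culture sets, a and b, of 8 and 7 arrays. All 31 probe sets with a gap of 1 log2 unit or more that ran through every wild-type group divided the arrays in this same way. Set a holds untreated replicates 1 to 3 and replicate 1 of each treated group, and set b holds the rest, so that both sets contain TSG-6 arrays and arrays without TSG-6. The 18S ribosomal RNA probe set was above 1 on 1 of the 4 TSG-6 arrays and on 2 of the 7 others. The 13 endothelial markers stood high on all 11 arrays relative to the middle array of the study, with list means of 3.13 to 3.54 on the TSG-6 arrays and 3.15 to 3.76 on the others, whereas the 11 fibroblast markers averaged -0.35 to 0.16 and -0.39 to 0.10. Centred values do not show whether either group of markers was absent from a culture.

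TSG-6 changed 120 of 18194 genes in wild-type fibroblasts (0.66% called), of which 63 were higher (0.346%) and 57 lower (0.313%). At least 2-fold changes were found in 25 of them, 14 higher and 11 lower. The genes with the largest rises encode an inhibitor of plasminogen activators (Serpinb2), granulocyte and granulocyte-macrophage growth factors (Csf3 and Csf2), the secreted glycoprotein olfactomedin 2 (Olfm2), matrix metalloproteinases (Mmp10 and Mmp9) and the neutrophil-attracting chemokine Cxcl2. The largest falls were in the tight junction protein claudin 1 (Cldn1), the cysteine-degrading enzyme Cdo1 and the Wnt agonist Rspo2. The median fold change over all 18194 genes was -0.003 on the log2 scale. With the culture set as a block, 347 genes were called, all 120 among them. Only 49 of the 120 were among the 76 genes called with the wild-type arrays alone. Without replicate 1 of the TSG-6 group 46 genes were called, and without replicate 2 of that group 52.

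Of the 120 called genes, 41 had all 4 TSG-6 arrays above all 7 others and 42 had all 4 below, while the arrays of the other 37 overlapped. Over all genes tested, the arrays did not overlap for 343 genes (1.89%), with the 4 TSG-6 arrays above the 7 others for 150 (0.824%) and below them for 193 (1.06%). The 10 largest rises and 10 largest falls among the called genes whose arrays did not overlap are described next.

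The transcript of TSG-6 itself did not pass the test. Tnfaip6 had values of -0.12 and -0.06 in the TSG-6 cultures and 0.31 and -0.27 in the cultures with TSG-6 and HA, against a lowest of -0.55, a median of -0.34 and a highest of -0.14 in the 7 cultures without TSG-6. The groups overlapped, and the pooled difference was 0.30 ± 0.17 (limma adjusted p = 0.982). The labels do not say which stretch of Tnfaip6 the knockout removes, so this probe set is no check of the genotype labels.

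Serpinb2 encodes plasminogen activator inhibitor 2, a serpin that blocks urokinase and tissue plasminogen activator. It had values of -1.08 and -0.69 in the TSG-6 cultures and -1.01 and -1.64 with TSG-6 and HA, against -4.33 at the lowest, -3.78 at the median and -3.37 at the highest in the 7 cultures without TSG-6. All 4 TSG-6 arrays were far above every other array. The pooled rise was 2.73 ± 0.38, or 6.62-fold (limma adjusted p = 5.59e-05), and it was 2.83 in culture set a and 2.54 in set b.

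Mmp10 encodes stromelysin 2, a matrix metalloproteinase that cleaves proteoglycans and activates other metalloproteinases. It had values of 1.40 and 1.75 with TSG-6 and 0.94 and 0.69 with TSG-6 and HA, against a range of -0.32 to 0.11 with a median of -0.12 in the 7 others. The arrays did not overlap, and the pooled rise was 1.35 ± 0.17 (limma adjusted p = 1.11e-05). Serpinb2 and Mmp10 are shown here with their promoters because each holds, in its 300 bases around a listed start, a match to the AP-1 motif TGANTCA, which reads the same on both strands. The sequences are RefSeq's on GRCm38.p6, from 250 bases before to 50 bases after the start, with the match in capitals. The Serpinb2 window, for 1 of its 2 listed starts, is chr1:107511173-107511472 on the + strand with the match 94 bases before the start, and the Mmp10 window is chr9:7502092-7502391 on the + strand with the match 63 bases before it.
Serpinb2: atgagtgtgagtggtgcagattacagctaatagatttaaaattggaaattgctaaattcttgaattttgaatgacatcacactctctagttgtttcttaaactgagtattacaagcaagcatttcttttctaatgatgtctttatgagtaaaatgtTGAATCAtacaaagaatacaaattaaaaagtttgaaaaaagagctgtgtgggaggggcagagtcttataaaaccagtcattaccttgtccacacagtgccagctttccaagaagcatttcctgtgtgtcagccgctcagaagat
Mmp10: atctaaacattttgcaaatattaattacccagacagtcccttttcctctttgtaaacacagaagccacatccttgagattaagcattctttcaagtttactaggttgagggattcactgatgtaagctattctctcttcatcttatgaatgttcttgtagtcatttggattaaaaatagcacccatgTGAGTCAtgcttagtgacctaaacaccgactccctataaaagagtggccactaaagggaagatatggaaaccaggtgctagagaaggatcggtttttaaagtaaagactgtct
The same motif was in the windows of 6 of the 45 called higher genes that have a promoter in the table (13.33%). It was in those of 5 of the 47 called lower genes (10.64%). Of the tested genes with a promoter 1078 of 14369 had it (7.5%), and of all genes, tested or not, 2425 of 27025 (8.97%). A match is a description of the letters and not a site.

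Olfm2 had values of 2.14 and 1.74 with TSG-6 and 1.60 and 1.79 with TSG-6 and HA, against a range of -0.37 to 0.48 with a median of 0.09 in the 7 others. The lowest TSG-6 array was more than 1 log2 unit above the highest other array. Its pooled rise of 1.81 ± 0.17, or 3.51-fold, had the smallest adjusted p of all genes (1.57e-08 in limma). It kept its call under each of the 21 alternative settings, with values between 1.56 and 2.04.

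Prg4 encodes lubricin, the boundary lubricant that lining fibroblasts secrete into synovial fluid. It had values of -2.45 and -3.67 with TSG-6 and -2.35 and -3.49 with TSG-6 and HA, against a range of -4.78 to -3.91 with a median of -4.03 in the 7 others. The groups did not overlap, although the replicate 2 arrays lay close to the highest cultures without TSG-6. The pooled rise was 1.30 ± 0.21 (limma adjusted p = 0.000282). Fitted with the wild-type arrays alone, Prg4 lost its call. It was the 1 member called among 6 markers of synovial lining fibroblasts, and the list's median was -0.077.

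Fbp1, an enzyme of gluconeogenesis, had values of 3.63 and 3.12 with TSG-6 and 3.81 and 3.41 with TSG-6 and HA, against 1.32 at the lowest, 1.76 at the median and 2.94 at the highest without TSG-6. Its pooled rise was 1.32 ± 0.20 (limma adjusted p = 0.000123). Nt5e encodes CD73, which makes adenosine from AMP at the cell surface. It had values of -0.88 and -0.92 with TSG-6 and -1.13 and -1.39 with TSG-6 and HA, against -2.68 to -2.0 with a median of -2.38 in the others. Its pooled rise was 1.28 ± 0.21 (limma adjusted p = 0.000413), and its other probe sets, at 0.24 and -0.09, did not pass.

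The other 4 of the 10 rises were smaller and separated the arrays as well. Hk2, the inducible hexokinase that starts glycolysis, rose by 0.87 ± 0.12, with 4 values of 0.22 to 0.60 against -0.88 to 0.00 in the 7 others. Col5a3, a chain of collagen V, rose by 0.87 ± 0.13, though the second of its 2 probe sets had the opposite sign. Pcsk5, a proprotein convertase, rose by 0.85 ± 0.15, and its other probe sets, at 0.69, 0.06, 0.04 and -0.06, did not pass. Smim3, a small membrane protein, rose by 0.83 ± 0.13. The adjusted limma p-values of these 4 genes lay between 5.91e-05 and 0.00125. Smim3 lost its call with the wild-type arrays alone.

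Cldn1 had values of -1.55 and -0.42 with TSG-6 and -1.21 and -1.80 with TSG-6 and HA, against 0.01 at the lowest, 0.32 at the median and 1.01 at the highest without TSG-6. TSG-6 replicate 2 lay nearest to the other cultures. The pooled fall was 2.88-fold, a log2 difference of -1.53 ± 0.23 (limma adjusted p = 0.000123), and the probe set used here was the one of 4 with the largest fall. The other 3 were at -0.84, -0.10 and -0.01 and did not pass, and with the mean of its probe sets Cldn1 had a fall of -0.62 that was still called.

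Cdo1 had values of -2.23 and -2.89 with TSG-6 and -2.09 and -3.08 with TSG-6 and HA, against -1.73 to -0.45 with a median of -0.92 in the 7 others, a difference of -1.49 ± 0.19 (limma adjusted p = 1.11e-05). Nmb, which encodes the peptide neuromedin B, had values of 1.21 and 1.94 with TSG-6 and 1.12 and 1.38 with TSG-6 and HA, against 2.01 to 3.16 with a median of 2.60 in the others, a difference of -1.17 ± 0.15 (limma adjusted p = 1.11e-05). Both genes kept their call in every one of the 21 alternative settings.

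Id2, an inhibitor of basic helix-loop-helix factors and a target of BMP signals, had values of -0.77 and 0.12 with TSG-6 and -0.72 and -0.65 with TSG-6 and HA, against 0.27 to 1.61 with a median of 0.64 in the others. TSG-6 replicate 2 lay well above the other 3 TSG-6 arrays and just under the lowest culture without TSG-6. The difference was -1.20 ± 0.21 (limma adjusted p = 0.00137), and the call was lost with the wild-type arrays alone, without the arrays of high 18S signal and without TSG-6 replicate 1. Ramp3, a partner of the calcitonin receptor-like receptor, had 4.02, 3.93, 3.96 and 2.91 on the 4 TSG-6 arrays, against 4.27 to 5.48 with a median of 5.16 on the others, a difference of -1.23 ± 0.22 (limma adjusted p = 0.00128).

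The remaining falls were in Sned1, an extracellular matrix glycoprotein (-1.28 ± 0.25), Ifit3 (-1.18 ± 0.26), Npr3, the clearance receptor of natriuretic peptides (-1.15 ± 0.27), Mettl7a1 (-1.03 ± 0.19) and Vegfd, a growth factor for lymphatic vessels (-1.01 ± 0.22). Their adjusted limma p-values lay between 0.00213 and 0.0284. For Npr3 the highest TSG-6 array was at -2.76 and the lowest other array, an HA culture, at -2.73, so its groups only just separated. Of the 3 probe sets of Mettl7a1, 1 was at 0.01. Npr3, Mettl7a1 and Vegfd lost their call with the wild-type arrays alone. Sned1, Ifit3, Npr3, Mettl7a1 and Vegfd lost it within set b, and Sned1, Ifit3 and Npr3 within set a as well. Losses without single arrays were as follows. Ifit3 lost its call without TSG-6 replicate 1 or 2, without HA replicate 1 or without replicate 1 of TSG-6 with HA. Npr3 lost its call without untreated replicate 1 or 2, without TSG-6 replicate 1 or 2, or without HA replicate 1. Sned1 lost it without TSG-6 replicate 2, and Vegfd without TSG-6 replicate 2, HA replicate 1 or replicate 2 of TSG-6 with HA.

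**Figure D1:**
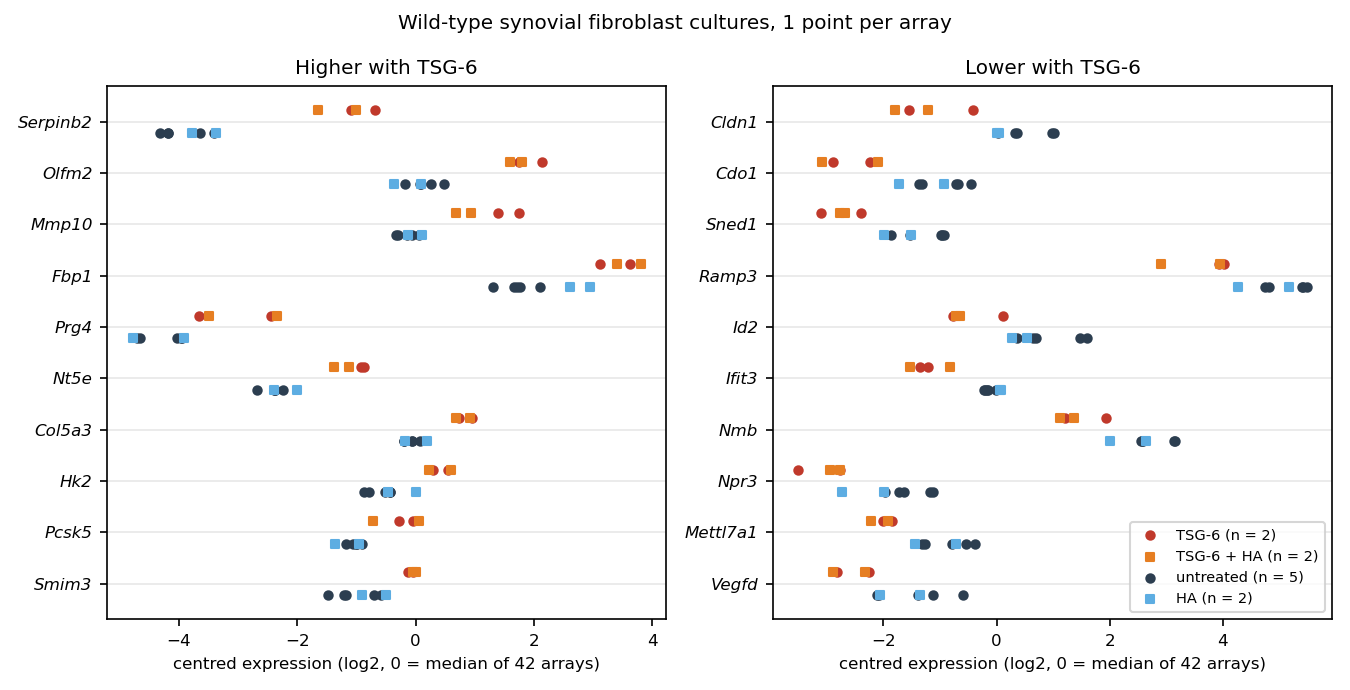
Centred expression (log2, 0 is the median of the 42 arrays) of the 10 largest rises and 10 largest falls whose arrays did not overlap, 1 point per wild-type array, with the 4 TSG-6 arrays drawn above the 7 arrays without TSG-6 for each gene. Serpinb2 stands furthest apart, at -1.64 to -0.69 with TSG-6 against -4.33 to -3.37 without it, and Npr3 the least, at -2.76 against -2.73.

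The 4 TSG-6 arrays hold a pair of comparisons that share no array, TSG-6 against untreated cultures (2 against 5) and TSG-6 with HA against HA (2 against 2). Each asks what TSG-6 did, in the absence and in the presence of added HA. TSG-6 alone called 78 genes (0.429%), 50 higher (0.275%) and 28 lower (0.154%). TSG-6 on top of HA called 1 gene (0.0055%), Olfm2, with 580 genes at an unadjusted p under 0.05. With the culture set as a block the counts were 214 and 19. Of the 78 genes called with TSG-6 alone, 76 (97.4%) had the same sign with TSG-6 on top of HA, against 58.8% of all genes. Their sizes were not the same, however. The median of the 50 higher genes was 0.935 with TSG-6 alone and 0.386 on top of HA, and that of the 28 lower genes was -0.965 and -0.522. The genes were chosen for large values with TSG-6 alone, which the second set of arrays did not enter. Over all 18194 genes the Pearson correlation of both sets of fold changes was 0.423, across genes that are not independent replicates.

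**Figure D2:**
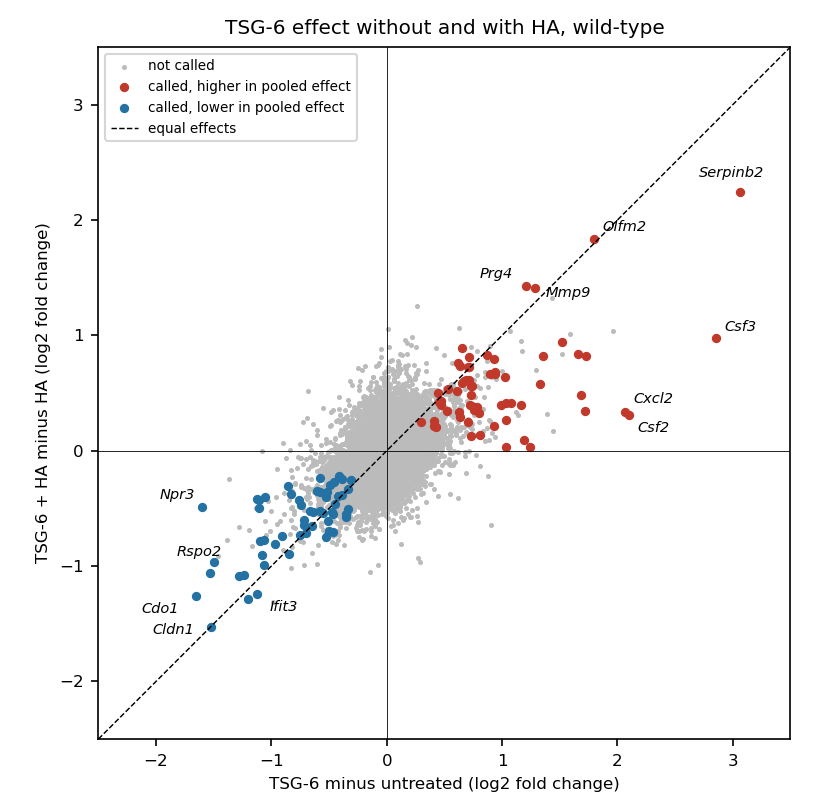
Log2 fold change of every gene with TSG-6 against untreated cultures (horizontal) and with TSG-6 and HA against HA (vertical), with the 120 genes called in the pooled effect in red and blue and the dashed line marking equal effects. Olfm2, Prg4, Mmp9, Cldn1 and Ifit3 lie near the line, whereas Cxcl2, Csf2 and Csf3 lie well to the right of it.

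The fold changes of Cxcl2, Csf2 and Csf3 with TSG-6 were far apart without and with HA. Cxcl2, a ligand of the neutrophil receptor CXCR2, had values of -1.07 and -1.57 with TSG-6 and -0.57 and -0.79 with TSG-6 and HA, against -0.93 and -1.10 with HA alone and -3.45 to -3.28 in the 5 untreated cultures. Every treated array was thus far above every untreated one, and HA alone stood at least as high as TSG-6 alone. TSG-6 raised Cxcl2 by 2.06 ± 0.18 over untreated cultures and had a difference of 0.34 ± 0.22 over HA cultures. The difference between these effects was -1.73 ± 0.29 (limma adjusted p = 0.0147), and Cxcl2 was the 1 gene of 18194 that passed this test (0.0055%), with 249 genes at an unadjusted p under 0.05.

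The call depended on the arrays used. The adjusted p was 0.0996 with the wild-type arrays alone, 0.0845 without the arrays of high 18S signal, 0.979 without TSG-6 replicate 1, 0.36 without HA replicate 1, 0.076 without HA replicate 2, 0.414 without replicate 2 of TSG-6 with HA and 0.152 with the replicate number as a block, for Cxcl2 log2 differences that stayed between -1.81 and -1.48. With the culture set as a block, 7 genes passed, all with a lower value for the effect of TSG-6 in the presence of HA than without it. They were Csf2 (-1.85 ± 0.32), Cxcl2 (-1.74 ± 0.27), the potassium channel gene Kcnq5 (-1.26 ± 0.21), Cxcl16 (-1.24 ± 0.21), Cxcl1 (-1.13 ± 0.18), the cathelicidin gene Camp (-1.01 ± 0.19) and Glycam1 (-0.87 ± 0.17), with limma adjusted p-values of 0.0034 to 0.0418. Of these, Glycam1 differed in sign, with effects of TSG-6 of 0.45 without HA and -0.40 on top of it, neither of which passed the test.

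Csf2 and Csf3 encode the growth factors GM-CSF and G-CSF, which raise the output and survival of granulocytes and macrophages. Csf3 had values of 3.04 and 2.70 with TSG-6 and 3.83 and 3.77 with TSG-6 and HA, against 2.83 and 2.81 with HA alone and -0.26 to 0.31 in untreated cultures. Csf2 had 2.78 and 1.77 with TSG-6 and 3.31 and 3.31 with TSG-6 and HA, against 3.07 and 2.93 with HA alone and -0.56 to 0.62 in untreated cultures. For both genes HA alone reached the range of TSG-6 alone or passed it, and the combined cultures were the highest. The effect of TSG-6 on Csf3 was 2.86 ± 0.38 without HA and 0.98 ± 0.45 on top of it, and that on Csf2 was 2.10 ± 0.26 and 0.31 ± 0.31. The 95% intervals of their differences were -3.07 to -0.68 and -2.60 to -0.98, and neither passed the test after adjustment over all genes (limma adjusted p = 1.0 and 0.366).

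The pooled HA effect, fitted beside the pooled TSG-6 effect, called 20 genes (0.11%), 14 higher (0.0769%) and 6 lower (0.033%). The pooled HA term was 1.66 ± 0.20 for Cxcl2, 2.09 ± 0.24 for Csf2, 2.04 ± 0.32 for Csf3 and 1.22 ± 0.19 for Cxcl3. Their limma adjusted p-values were 3.61e-06 to 0.000856. The term combines HA given without and with TSG-6, so for these genes it is not the effect of HA alone. In contrast the HA terms of Serpinb2, Olfm2 and Prg4 were 0.04 ± 0.38, -0.27 ± 0.17 and 0.01 ± 0.21. Fitted effects of TSG-6 of like size without and with HA were found for Mmp9, which encodes gelatinase B (1.29 ± 0.26 without HA and 1.41 ± 0.31 on top of it), the metalloproteinase inhibitor gene Timp1 (0.65 ± 0.10 and 0.59 ± 0.12), Prg4 (1.21 ± 0.27 and 1.43 ± 0.32) and Cldn1 (-1.52 ± 0.30 and -1.53 ± 0.36). The 95% intervals of those differences were -0.70 to 0.94 for Mmp9, -0.36 to 0.24 for Timp1, -0.64 to 1.08 for Prg4 and -0.97 to 0.95 for Cldn1, so these arrays do not show that the effects were equal.

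**Figure D3:**
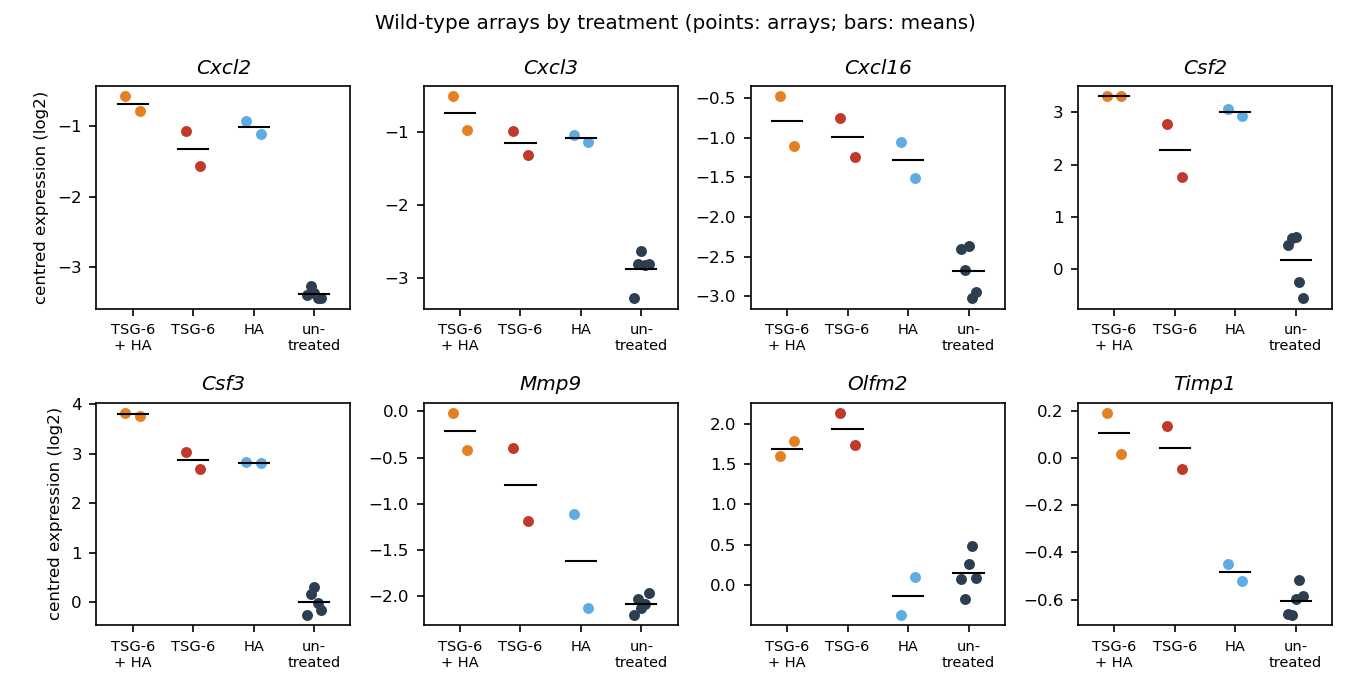
Centred expression (log2) of 8 genes on the 11 wild-type arrays by treatment, with points for arrays and bars for means. Cxcl2, Cxcl3, Cxcl16, Csf2 and Csf3 are high in all treated groups and low in the 5 untreated cultures, whereas Olfm2 and Timp1 are high in the TSG-6 groups and stay low with HA alone.

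Within lists of related genes, chemokines held the most calls. The counts in the lists below stand against 0.346% of all genes called higher and 0.313% called lower. Of 22 chemokine genes measured, 7 were higher and 0 lower, and the list's median was 0.302, against -0.003 over all genes. The 4 with the smallest adjusted p were Cxcl16, a transmembrane chemokine (1.19 ± 0.17), Cxcl2 (1.35 ± 0.20), Cxcl3 (1.16 ± 0.19) and Cxcl1 (0.74 ± 0.15), the last 3 being neutrophil attractants. On these 4 genes the TSG-6 arrays overlapped the 7 others, among which HA cultures held the highest values. Cxcl3 had -0.99 and -1.31 with TSG-6 and -0.50 and -0.97 with TSG-6 and HA, against -1.03 and -1.13 with HA alone and -3.28 to -2.63 in untreated cultures. The list had 3 calls without TSG-6 replicate 1 and 3 without replicate 2, and 1 call when the wild-type arrays were fitted alone.

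Of 23 cytokine and growth factor genes, 3 were higher and 0 lower (median 0.046), namely Csf3 (2.08 ± 0.32), Csf2 (1.36 ± 0.24) and Lif, an interleukin 6 family cytokine (0.83 ± 0.18, limma adjusted p = 0.0142). Lif had values of 0.01, 0.19, -0.01 and 0.01 on the TSG-6 arrays, against -1.16 to -0.50 with a median of -0.81 on the others, and HA had no call on it. Without TSG-6 replicate 1 the list had 1 call. Of 17 NF-kB targets and feedback genes, 4 were higher and 0 lower (median 0.166). They were the ribonuclease gene Zc3h12a (0.64 ± 0.12), the inhibitor-like factors Bcl3 (0.61 ± 0.12) and Nfkbiz (0.53 ± 0.12) and the NF-kB inhibitor gene Nfkbia (0.34 ± 0.08). This list had 0 calls without TSG-6 replicate 1 and 1 without replicate 2. It had 1 call with the wild-type arrays alone, 2 with the mean of a gene's probe sets and 0 within either culture set. The other probe sets of Nfkbia were at 0.09 to 0.25 and did not pass.

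Among 19 matrix metalloproteinases and their inhibitors, 3 were higher and 0 lower, with a list median of 0.004. Timp1, the secreted inhibitor, had values of 0.13, -0.05, 0.19 and 0.02 on the TSG-6 arrays, against -0.67 to -0.45 with a median of -0.59 on the 7 others. Its rise was small and even, at 0.62 ± 0.07 (limma adjusted p = 3.48e-06). Mmp9 rose by 1.34 ± 0.20 (limma adjusted p = 9.77e-05), with 4 values of -0.39, -1.19, -0.01 and -0.41 against -2.20 to -1.11. The groups overlapped at TSG-6 replicate 2 and the highest HA culture. The aggrecanase gene Adamts4 had a difference of 0.58 ± 0.16 and did not pass (limma adjusted p = 0.105), although its 4 TSG-6 arrays lay above the 7 others. In the plasminogen system 1 of 11 genes was higher, Serpinb2, and the list's median was -0.011.

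Genes that make, bind or break down hyaluronan held no call among 29 measured, with a median of 0.018. The nearest were Has2, the main hyaluronan synthase of fibroblasts, and the hyaluronan-binding proteoglycan gene Vcan. Has2 had values of 1.51 and 1.03 with TSG-6 and 1.49 and 0.94 with TSG-6 and HA, against 0.17 to 0.56 with a median of 0.41 in the 7 others. Its arrays did not overlap, and the difference of 0.90 ± 0.23 narrowly missed the threshold (limma adjusted p = 0.0503). Vcan had a difference of 0.70 ± 0.18 (limma adjusted p = 0.0537), again with no overlap. With the culture set as a block 4 genes of this list were called, 2 higher and 2 lower, where 347 of all genes were called. Without the arrays of high 18S signal 2 of the list were called, both higher, where 132 of all genes were.

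Interferon-stimulated genes had the opposite sign. All 24 measured genes of this list had a negative fold change, the list's median was -0.503, and 3 were called lower (0.313% of all genes were) and 0 higher. The list's mean on each array was -0.232 to 0.050 on the 4 TSG-6 arrays, against 0.301 to 0.525 on the 7 others, so that no array overlapped. For 11 of the 24 genes the 4 TSG-6 arrays lay below all 7 others, against 1.06% of all genes. Ifit3, an antiviral effector, had values of -1.20 and -1.35 with TSG-6 and -1.53 and -0.82 with TSG-6 and HA, against a narrow range of -0.21 to 0.08 with a median of -0.16 in the others. Its difference of -1.18 ± 0.26 was a 2.26-fold fall (limma adjusted p = 0.0171). Oas3, which makes the activator of ribonuclease L, had values of about 0.00, 0.12, 0.00 and 0.19 on the TSG-6 arrays, against 0.42 to 1.11 with a median of 0.67, a difference of -0.61 ± 0.12 (limma adjusted p = 0.00439). Mx2, an interferon-induced gene that RefSeq annotates as a transcribed pseudogene in this mouse reference, had a difference of -0.62 ± 0.15 (limma adjusted p = 0.0486), and the GTPase gene Igtp one of -0.59 ± 0.18 that did not pass (adjusted p = 0.189).

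The number of interferon calls depended on the arrays. It was 7 with the wild-type arrays fitted alone, 0 without TSG-6 replicate 1, and 1 without TSG-6 replicate 2, without HA replicate 1 or without replicate 1 of TSG-6 with HA. Within the culture sets the list's median was -0.615 in set a and -0.459 in set b.

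Ifit3 and Oas3 are shown with their promoters because the list to which they belong is defined by interferon response, which acts through the interferon-stimulated response element, searched here on both strands as GAAA, then any 2 bases, then GAAA again. The windows are RefSeq's on GRCm38.p6 with the matches in capitals. That of Ifit3 is chr19:34583279-34583578 on the + strand, with matches 156 and 122 bases before the start, and that of Oas3 is chr5:120777610-120777909 on the - strand, with a match 75 bases before it.
Ifit3: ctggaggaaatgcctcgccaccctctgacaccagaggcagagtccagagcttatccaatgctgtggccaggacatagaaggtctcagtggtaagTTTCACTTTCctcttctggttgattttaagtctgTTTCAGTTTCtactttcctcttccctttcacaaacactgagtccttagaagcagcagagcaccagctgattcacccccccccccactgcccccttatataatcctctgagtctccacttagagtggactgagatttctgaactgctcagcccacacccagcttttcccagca
Oas3: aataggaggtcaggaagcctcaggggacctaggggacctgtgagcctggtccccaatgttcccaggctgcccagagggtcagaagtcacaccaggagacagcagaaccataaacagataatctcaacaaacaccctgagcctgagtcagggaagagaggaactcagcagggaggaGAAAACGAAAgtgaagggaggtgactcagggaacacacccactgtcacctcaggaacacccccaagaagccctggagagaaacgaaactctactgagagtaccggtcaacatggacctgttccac
The motif was in 12 of the 18 interferon-stimulated genes with a promoter in the table (66.67%). It was in 5 of the 47 called lower genes (10.64%) and in 1 of the 45 called higher genes (2.22%). Of the tested genes with a promoter 523 of 14369 had it (3.64%), and of all genes, tested or not, 1079 of 27025 (3.99%). The AP-1 letters TGANTCA also occur in both windows, with 1 match in Ifit3 and 2 in Oas3, and do not overlap the capitals.

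Among 13 genes of MHC class I processing, which interferons also induce, 12 had a negative fold change and 0 were called (median -0.192). The nearest was the peptide transporter gene Tap1 at -0.37 ± 0.10 (limma adjusted p = 0.0975), followed by the immunoproteasome subunit gene Psmb9 at -0.59 ± 0.18 (adjusted p = 0.191). In both genes the 4 TSG-6 arrays lay below the 7 others.

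Genes of metabolism and stress gave few calls. Of 20 hypoxia and glycolysis genes, 18 were positive with a median of 0.201, and 1 was called, Hk2. Of 15 oxidative stress and metallothionein genes, 2 were higher (median 0.258), the mitochondrial superoxide dismutase gene Sod2 (0.72 ± 0.15) and Mt2 (0.49 ± 0.11), and this count fell to 0 without either TSG-6 replicate. Nt5e was the 1 call among 17 enzymes of prostaglandin, nitric oxide and purine metabolism (median 0.191), and Fkbp11 (0.67 ± 0.13) the 1 call among 20 chaperones of the endoplasmic reticulum (median 0.126). The other probe sets of Fkbp11 were at -0.02 and -0.15, and its call was lost without TSG-6 replicate 2, with the wild-type arrays alone and with the mean of a gene's probe sets. Cholesterol synthesis had 17 of 18 genes positive, 0 calls and a median of 0.180.

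Of 22 immediate early genes and signalling brakes, 3 were called. Ier3 (0.62 ± 0.11) and Junb, a subunit of AP-1 (0.44 ± 0.11), were higher, and Rgs2, a brake on G-protein signals, was lower, at -0.04, 0.32, -0.23 and 0.09 on the TSG-6 arrays against 0.83 to 1.30 on the 7 others (-0.87 ± 0.16, limma adjusted p = 0.00227). Without TSG-6 replicate 1 this list had 1 call. Id2 was the 1 call among 19 BMP targets and antagonists (median -0.154), and Rspo2 the 1 call among 24 Wnt ligands, agonists and antagonists (-1.34 ± 0.25, limma adjusted p = 0.0027, median -0.026). Rspo2 lost its call without TSG-6 replicate 2 and with the wild-type arrays alone. The TSG-6 arrays of Rspo2 overlapped the others, and its other probe set was at 0.07. Matrix genes were mostly short of the threshold. Ltbp2, which encodes a matrix protein related to the latent TGF-beta binding proteins, was the 1 call among 21 myofibroblast and TGF-beta genes (0.53 ± 0.11, median 0.252) and lost that call without TSG-6 replicate 1 or HA replicate 1. Col5a3 was the 1 call among 20 collagens (median 0.140), and small leucine-rich proteoglycans (13 genes) had 0. The 23 cell cycle and mitosis genes had 19 negative values, a median of -0.287 and 0 calls, and the 19 innate receptor and LPS handling genes had 0 calls and a median of 0.002.

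With the culture set as a block, calls rose over all genes, from 63 higher and 57 lower to 170 higher and 177 lower. More members of several lists were called as well. Whether these lists gained more calls than other genes was not tested. Cell cycle and mitosis genes then had 4 lower, MHC class I processing 2 lower, and BMP targets and antagonists 2 lower. Hypoxia and glycolysis genes had 5 higher, metalloproteinases and their inhibitors 6 higher, and enzymes of prostaglandin, nitric oxide and purine metabolism 3 higher. Cytokines and growth factors had 5 higher and 1 lower, the plasminogen system 3 higher and 1 lower, and immediate early genes and signalling brakes 5 higher and 2 lower.

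**Figure D4:**
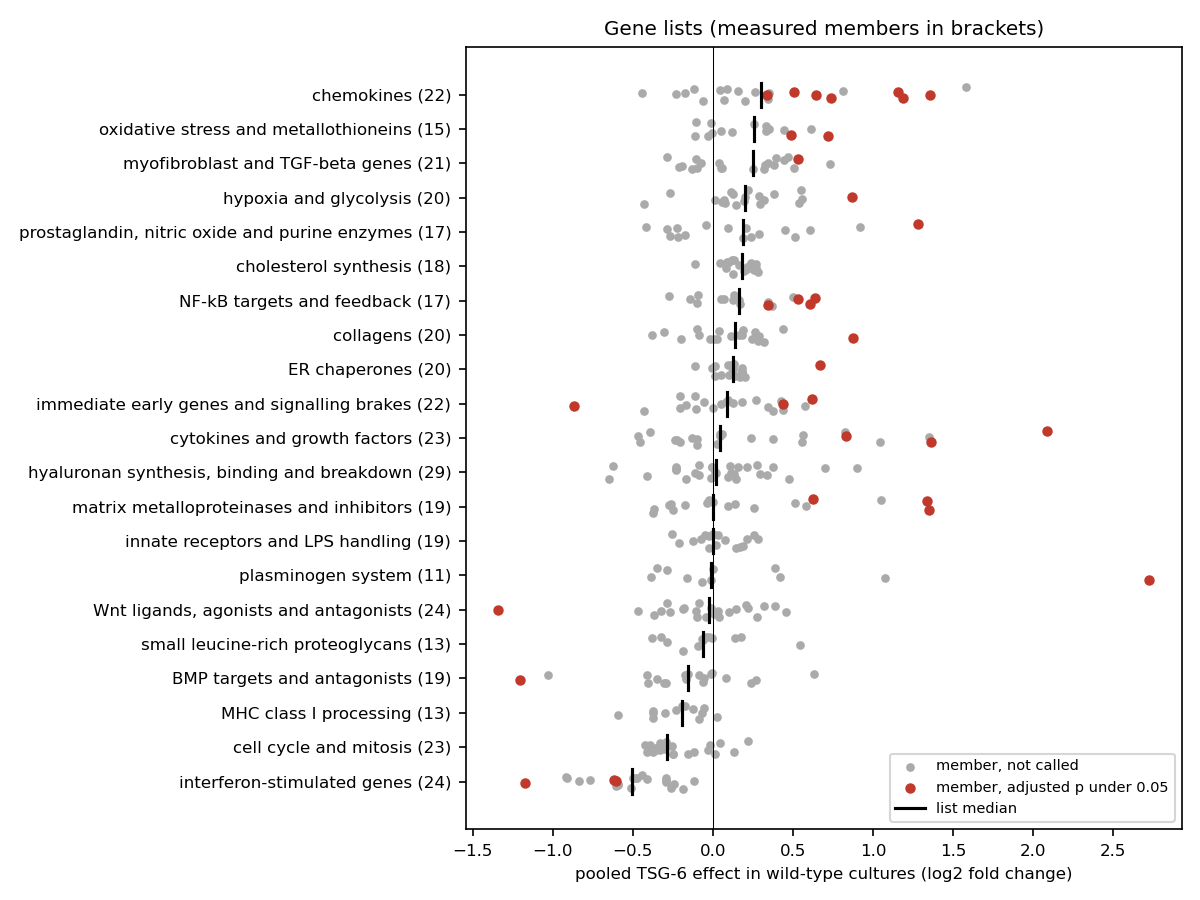
Pooled TSG-6 effect (log2 fold change) of every measured member of 21 gene lists, 1 point per gene, with called members in red, the list's median as a bar and the lists ordered by that median. Chemokines are at the top with a median of 0.302 and 7 calls, and interferon-stimulated genes at the bottom with a median of -0.503 and 3 calls.

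Markers of other cell types were examined as well. Outside the fibroblast lists, 2 markers were called over 11 cell type lists of 5 to 13 measured markers each. Of all genes 0.66% were called, and the share among markers was not tested against it. Camp, of 7 neutrophil markers, was higher (0.62 ± 0.13, limma adjusted p = 0.00626). Cldn5, of 13 endothelial markers, was lower (-0.78 ± 0.20, adjusted p = 0.0486). The neutrophil list mean was -0.588 to -0.220 on the TSG-6 arrays, against -0.870 to -0.372 on the others, and the 12 macrophage markers averaged 0.093 to 0.199 against -0.043 to 0.171. The part of these cells in any result was not tested.

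Responses to TSG-6 were also measured in the knockout-labelled cultures, 7 with TSG-6 and 12 without. There the same pooled contrast called 1802 genes (9.9%), 721 higher (3.96%) and 1081 lower (5.94%). Of the 120 genes called in wild-type cultures, 75 were called in the same direction in knockout-labelled cultures. That is 62.5% of the wild-type calls and 4.16% of the knockout-labelled calls. In all, 109 of the 120 (90.8%) had the same sign, against 61.4% of all genes, and 1 was called in the opposite direction. The share called in both was 34 of 63 for higher genes and 41 of 57 for lower genes. More arrays entered the knockout-labelled contrast, so the counts of calls are not comparable. The endothelial markers had list means of 3.13 to 3.76 on the 11 wild-type arrays. These are relative to the middle of 42 arrays, of which 27 were knockout-labelled. Genotype therefore cannot be told apart here from the cells that made up the cultures.

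Several of the leading genes repeated their direction on arrays of the other genotype. Olfm2 had 1.12 at the lowest, 2.12 at the median and 2.75 at the highest on the 7 knockout-labelled arrays with TSG-6, against -0.63, -0.41 and -0.01 on the 12 without, a rise of 2.40 ± 0.13 beside 1.81 ± 0.17 in wild-type cultures. Prg4 rose by 1.02 ± 0.15, Nt5e by 1.00 ± 0.16 and Pcsk5 by 1.24 ± 0.12 in knockout-labelled cultures. Has2 and Vcan, just short of the threshold in wild-type cultures, rose by 0.93 ± 0.17 and 1.36 ± 0.14 there. Of the falls, Ifit3 changed by -1.72 ± 0.20 and Sned1 by -1.70 ± 0.19. Interferon-stimulated genes had 17 of 24 called lower in knockout-labelled cultures, with a median of -0.568, where 5.94% of all genes were called lower. By contrast, the pooled differences of Cxcl2 and Csf2 there were 0.19 ± 0.19 and 0.29 ± 0.18 and did not pass. Serpinb2 and Mmp10, at 0.65 ± 0.29 and 0.34 ± 0.13 there, did not pass either. In the direct test described next, the response of Mmp10 differed by -1.02 ± 0.21 (limma adjusted p = 0.0279).

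The difference between genotypes in the pooled effect was tested directly, and 26 genes passed (0.143%), 9 higher (0.0495%) and 17 lower (0.0934%) in knockout-labelled than in wild-type cultures. The 3 largest of each direction are as follows. The response of Fbp1 differed by -1.45 ± 0.25 (limma adjusted p = 0.00378). Its 7 knockout-labelled TSG-6 arrays lay at -0.72 to 0.20 and the 12 without TSG-6 at -0.61 to 0.20, whereas wild-type arrays had 3.12 to 3.81 with TSG-6 and 1.32 to 2.94 without it. Fbp1 was thus low in knockout-labelled cultures whatever the treatment. The responses of Plin4, which encodes a lipid droplet protein (-1.27 ± 0.25), and of the sorting receptor gene Sorl1 (-1.19 ± 0.24) were also lower. In those 2 genes TSG-6 lowered the knockout-labelled cultures, with differences of -1.43 ± 0.15 and -1.18 ± 0.15, and the wild-type differences were -0.16 ± 0.19 and 0.01 ± 0.19.

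The responses that were higher in knockout-labelled cultures were led by Col8a2, a chain of the short-chain collagen VIII (1.37 ± 0.22, limma adjusted p = 0.00191), Sertad4 (1.18 ± 0.26, adjusted p = 0.0491) and Bpifc (1.05 ± 0.23, adjusted p = 0.0488). Sertad4 and Bpifc only just passed, and both lost the call without any 1 of the 5 wild-type untreated arrays (adjusted p = 0.0517 to 0.0822) and with the replicate number as a block (0.129). Col8a2 had 1.66 to 2.86 with TSG-6 and 0.00 to 0.90 without it in knockout-labelled cultures, beside 0.02, -0.52, 0.17 and -0.82 with TSG-6 and -0.90 to -0.41 without it in wild-type cultures. Cxcl2 (-1.16 ± 0.31, adjusted p = 0.157) and Serpinb2 (-2.08, adjusted p = 0.061) did not pass this test. No gene passed it once the arrays of high 18S signal were left out, with 1016 genes at an unadjusted p under 0.05, whereas 209 passed with the culture set as a block. The count was 8 without wild-type TSG-6 replicate 1, 11 without replicate 2 of that group, 17 without wild-type TSG-6 with HA replicate 1 and 14 without knockout-labelled TSG-6 replicate 1.

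The wild-type responses to LPS, the endotoxin that signals through Toll-like receptor 4, and to TNFa, the cytokine after which TSG-6 is named, stand beside the TSG-6 effect for scale. Each is set against the untreated level of the additive model, so both share untreated arrays with the TSG-6 effect, and no overlap or correlation between the responses is given. LPS called 200 genes (1.1%), 124 higher (0.682%) and 76 lower (0.418%). TNFa called 481 (2.64%), 254 higher (1.4%) and 227 lower (1.25%). Some genes moved in the same direction with all 3 agents. Nmb was at -1.17 ± 0.15 with TSG-6, -1.66 ± 0.19 with LPS and -1.94 ± 0.19 with TNFa, and Id2 at -1.20 ± 0.21, -1.30 ± 0.27 and -2.15 ± 0.27. Mmp9 was at 1.34 ± 0.20, 1.36 ± 0.25 and 2.27 ± 0.25. Other genes were not called with LPS or TNFa, among them Olfm2 (-0.25 ± 0.21 with LPS and 0.17 ± 0.21 with TNFa), Prg4 (0.18 ± 0.26 and 0.16 ± 0.26), Nt5e (0.21 ± 0.27 and 0.03 ± 0.27) and Pcsk5 (0.14 ± 0.19 and -0.20 ± 0.19).

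A direct test of the pooled TSG-6 effect against the LPS response found 30 genes (0.165%), 4 with a higher (0.022%) and 26 with a lower value (0.143%) for TSG-6. The 3 largest with a higher value were Olfm2 (2.07 ± 0.24, limma adjusted p = 2.12e-06), the cell adhesion gene Ncam1 (1.62 ± 0.26) and the endothelial claudin gene Cldn5 (1.54 ± 0.28). Ncam1 rose with TSG-6 (0.75 ± 0.18), and its LPS difference was -0.87 ± 0.23. Cldn5 was lower with both, by -0.78 ± 0.20 with TSG-6 and -2.33 ± 0.25 with LPS. The 3 largest with a lower value were Ccl5, a T cell and monocyte attractant (-3.52 ± 0.69), Cxcl2 (-2.76 ± 0.29) and Csf2 (-2.71 ± 0.35). The pooled effect combines TSG-6 without and with HA, whereas LPS was given without HA. The effect of TSG-6 without HA was 2.06 for Cxcl2 and 2.10 for Csf2, beside pooled effects of 1.35 and 1.36. For both genes the difference from LPS is therefore not that of TSG-6 alone, which was not tested. Cxcl2 stood at 0.71 and 1.15 on the LPS arrays, above all 4 TSG-6 arrays, and its LPS rise was 4.11 ± 0.26. The TSG-6 difference of Ccl5 was -0.06 ± 0.48, beside an LPS rise of 3.47 ± 0.61. Prg4 and Nt5e did not pass (adjusted p = 0.164 and 0.231). With the culture set as a block 123 genes passed, without LPS replicate 1 there were 10 and without LPS replicate 2 there were 18. Ncam1 and Ccl5 lost their call without LPS replicate 1, and Cldn5 and Ccl5 without LPS replicate 2. Cldn5 also lost it without the arrays of high 18S signal, where its difference was 0.91 (adjusted p = 0.711), and Cldn5 and Csf2 with the wild-type arrays alone (adjusted p = 0.163 and 0.0557).

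The median of the interferon-stimulated genes was -0.503 with TSG-6, 0.064 with LPS (0 of 24 called) and 0.505 with TNFa (6 called higher and 0 lower, where 1.4% of all genes were higher). Ifit3 was at 0.02 ± 0.34 with LPS and 0.79 ± 0.34 with TNFa. No gene of this list passed the direct test of TSG-6 against LPS, in which the list's median was -0.646.

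**Figure D5:**
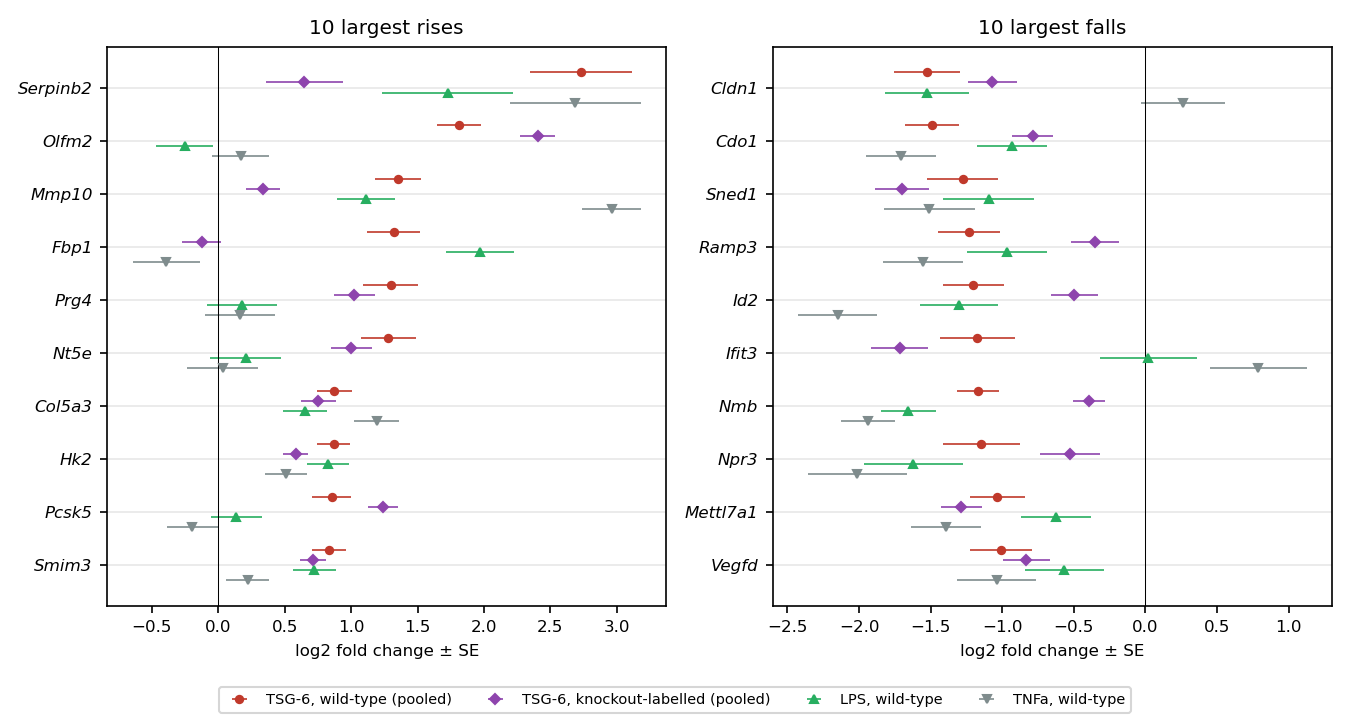
Log2 fold change ± SE of the 10 largest rises and 10 largest falls for the pooled TSG-6 effect in wild-type cultures, the pooled TSG-6 effect in knockout-labelled cultures, and LPS and TNFa in wild-type cultures. Olfm2, Prg4, Nt5e and Pcsk5 rise with TSG-6 in both genotypes and lie near 0 with LPS and TNFa, and Fbp1 is near 0 in knockout-labelled cultures at -0.13.

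Agreement between the culture sets was the last check on the wild-type effect. Fitted within set a the pooled effect called 60 genes (0.33%), 36 higher (0.198%) and 24 lower (0.132%). Within set b it called 22 (0.121%), 12 higher (0.066%) and 10 lower (0.055%), and 16 genes were called in both sets in the same direction. These fits share no TSG-6 or comparison array. Of the 60 genes called in set a, 58 had the same sign in set b (96.7%, against 58.5% of all genes), and of the 22 called in set b all 22 had the same sign in set a. The 36 genes called higher in set a had a median of 0.919 there and 0.736 in set b. The 24 called lower had -0.885 and -0.724.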

How the data were processed

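Messenger RNA of 42 cultures was measured, each on 1 one-colour Affymetrix array of 45101 probe sets. Per the submitters' processing notes the values were made with RMA, with no version or genome build given in the sources used here. The deposited log2 values were centred, with each probe set's median within 1e-05 of 0 over the 42 arrays. The labels give no base for the logarithm, and 2 was taken because the widest probe set spans 9.81.

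Probe sets listed with 1 gene (34958) were kept, those with several (932) or none (9211) were left out, and 34754 matched a current gene by number. A gene was represented by its probe set of largest SD over the arrays, avoiding the 506 probe sets that correlated above 0.7 with 18S ribosomal RNA where another existed (67 genes had none). This gave 18194 genes, of which 9012 had several probe sets. Intensity over background cannot be read from centred values, and precision is limited by the small number of arrays.

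All 42 arrays were fitted together in limma 3.58.1 (R 4.3.3; lmFit and eBayes, 31 residual and 4.26 prior degrees of freedom) with additive TSG-6 and HA terms for the 11 wild-type arrays and a mean for every other group. Groups of 2 thus borrow their spread from the others. The comparison between genotypes has additive terms within each genotype, and the interaction, TSG-6 alone and TSG-6 with HA use group means. Adjustment of p-values was by Benjamini-Hochberg over all genes. Tested on simulated data for the pooled effect over 18194 genes, the fit recovered 64% of 50 genes changed 1.5-fold, 94% at 2-fold, 98% at 3-fold and 100% at 4-fold. The simulated arrays varied independently and had additive effects, whereas the real arrays of a culture set varied together. These shares therefore check the fit and do not give the power of this design.

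The comparison, gene lists and markers were chosen with earlier results of these data known. Named genes are the 10 largest rises and falls among called genes whose arrays do not overlap, the 3 largest each way for the differences between effects, up to 4 members of smallest adjusted p in each list, and Tnfaip6. The 7 genes called with the culture set as a block were named after their values were seen. Culture sets were found from the data as the split that divides every group, a condition added after the values were seen. Among knockout-labelled arrays 9 of 10 such probe sets gave the same split, of 14 and 13 arrays. Alternatives were the wild-type arrays alone, the mean of a gene's probe sets, no avoidance of 18S, cyclic loess, a filter on low SD, replicate and culture set blocks, leaving out the 15 arrays of high 18S signal, and leaving out single arrays. Fits within each culture set, and leaving out single LPS or knockout-labelled arrays, were added after the values were seen. Promoters are RefSeq's.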

Additional observations from a re-analysis of the deposited data

Results flagged for a closer look

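On the 4 TSG-6 arrays Ramp3 had 1 value far from the rest, 2.91 in replicate 2 of TSG-6 with HA, where the nearest other array was at 3.93. That array is the TSG-6 array of high 18S signal, and the part of that signal in the value was not tested. Id2 had 1 value far above the other 3 TSG-6 arrays, 0.12 in TSG-6 replicate 2, where the nearest was at -0.65. Among the 5 untreated cultures Ifit3 was high in replicate 2, at -0.01, where the nearest was at -0.16. These came from 63 tests of a group's lowest and highest array, and chance marks about 1 in 20 groups.

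Responses to TSG-6 differed between knockout-labelled and wild-type cultures, by the direct test of that difference in limma, for Fbp1 (-1.45), Plin4 (-1.27), Sorl1 (-1.19), Col8a2 (1.37), Sertad4 (1.18) and Bpifc (1.05), as knockout-labelled minus wild-type log2 fold changes. The effect of TSG-6 differed with and without HA for Cxcl2, by -1.73.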

How the results depend on the processing

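None of the 20 leading genes changed direction under any of the alternative settings. Changes of sign in genes that were never called were not looked for. The pooled TSG-6 effect (120 genes) gave 76 genes with the wild-type arrays alone, 347 with the culture set as a block, 60 within set a and 22 within set b, and 46 to 117 without single replicates. It gave 114 to 132 with the mean of probe sets, without avoidance of 18S, with loess, with the SD filter or without arrays of high 18S signal. The 76 genes included 49 of the 120. Of the 20 leading genes, 14 kept their call with the wild-type arrays alone, 17 in set a and 8 in set b. The interaction (1) gave 0 with the wild-type arrays alone (266 at an unadjusted p under 0.05), 2 with loess, 7 with the culture set block, 0 without arrays of high 18S signal (161 unadjusted) and 0 to 3 without single replicates. TSG-6 alone (78) gave 33 with the wild-type arrays alone, 214 with the culture set block and 20 to 87 without single replicates. TSG-6 with HA (1) gave 0 with the wild-type arrays alone (652 unadjusted), 3 with the mean of probe sets, 4 with loess, 19 with the culture set block, 0 without arrays of high 18S signal (298 unadjusted) and 0 to 23 without single replicates. The genotype difference (26) gave 209 with the culture set block, 0 without arrays of high 18S signal (1016 unadjusted) and 8 to 33 without single replicates. TSG-6 minus LPS (30) gave 123 with the culture set block and 10 to 39 without single replicates. The causes were not tested.

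Replicate numbers did not pair all the arrays, since the deviations of same-numbered arrays correlated at -0.59 to 0.681 over 12 pairs. Those of the 6 pairs among treated groups were 0.547 to 0.681 and those of the 6 pairs with an untreated array -0.59 to 0.438. Deviations correlated at 0.145 to 0.681 over 21 pairs within a culture set. In a group of 2 the deviations of both arrays are mirror images, so pairs repeat each other and are not independent. The culture sets were found from these same values, so the correlations describe the arrays and are no separate evidence for the sets. With the replicate number as a block the pooled effect gave 165 genes, the interaction 0 (460 unadjusted), TSG-6 alone 159, TSG-6 with HA 7 and TSG-6 minus LPS 50. A fit without 1 of 2 replicates assumes that the lone array varies like the other groups. Centred values do not show which probe sets were dim.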
